A study of Mus musculus with 6 samples.

Results

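The genes described here encode the eukaryotic translation initiation factors (eIFs) and their closest regulators in sorted mouse regulatory T cells (Tregs), the Foxp3-dependent CD4+ T cells that restrain immune responses. They are the genes whose only platform symbol begins with Eif and a digit, without Eif2ak2, an interferon-induced kinase gene. The choice used names and no measured value, although earlier results of these data were known when it was made. It gave 48 of the 19937 genes with a single-symbol row, on 57 rows, and a gene with several rows was represented by its brightest row, averaged over the 6 arrays. Genes with a mean below 5.205 (the 25th percentile over rows with a gene) were not tested, which left 47 of the 48 among 15037 tested genes. The gene left out was Eif4a3l1, a near copy of Eif4a3, at 3.95 to 4.32 on the 6 arrays. No row was named for Eif1, Eif2s1, Eif3g or Eif4g1, and Eif3j1, Eif3j2 and Eif4ebp3 have only rows shared with other symbols, so these 7 family genes were not analysed here.

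Peripheral T cells of wild-type mice were injected into hosts without CD3ε, which make no T cells. The hosts of 1 group still expressed MHC class II (MHC II-competent), which presents peptides to the T cell receptor of CD4+ T cells, and those of the other group also lacked it (MHC II-deficient). The labels give the C57BL/6 strain and an age of 6 to 8 weeks, without saying whether donors or recipients are meant, and lymph nodes and spleen as the tissue. After 5 days, CD4+ TCRβ+ CD25+ cells were sorted and their RNA put on 1-colour Affymetrix whole-transcript arrays, 3 for each group, called competent 1 to 3 and deficient 1 to 3 below. The labels call the 3 preparations biological replicates and do not say whether each came from 1 host or several. The p-values therefore rest on the variation among preparations, whatever each contains. Both groups share the CD3ε deficiency of the host and the transfer itself.

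Translation starts when eIF2, carrying GTP and the initiator transfer RNA, joins the small ribosomal subunit with eIF1, eIF1A, eIF3 and eIF5. The eIF4 factors bind the cap of the messenger RNA and unwind its leader, and eIF5B joins the large subunit. Control acts mostly on the proteins: eIF2 kinases phosphorylate the α subunit of eIF2, which blocks its exchange factor eIF2B, and the kinase mTOR releases the cap-binding protein eIF4E from its binding proteins. T cells increase protein synthesis when they are activated, and the transcription factor Myc is known to raise the transcription of several of these genes. The arrays measure messenger RNA only, so they do not show phosphorylation or the rate of translation.

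No initiation factor gene passed the threshold, a Benjamini-Hochberg adjusted p under 0.05 in limma's test over all 15037 genes. The count was 0 higher and 0 lower of 47, where 3.37% of all tested genes passed, 1.34% as higher and 2.03% as lower in the MHC II-deficient group. At an unadjusted p under 0.05 there were 9 members (19.1%), 8 lower and 1 higher, beside 18.9% of all tested genes (11% lower and 7.85% higher). The differences, all MHC II-deficient minus MHC II-competent on the log2 scale, ran from -0.48 for Eif1b, an eIF1 gene, to 0.28 for Eif4a2, a helicase gene. The 95% interval lay within 0.5 log2 units of 0, a 1.41-fold difference, for 32 of the 47 genes (68.1%), beside 72.2% of all tested genes. In simulated data with the spread of these arrays, 22 of 50 genes changed by 0.5 log2 units and 46 of 50 changed by 1 were recovered in this comparison.

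The members leaned to the lower side by small amounts. The difference was below 0 for 41 of 47 genes (87.2%), where it was below 0 for 46% of all tested genes. The median difference over the members was -0.12, beside 0.02 over all tested genes and a median standard error of 0.11 for a single member. The groups did not overlap for 12 members that were lower (25.5%) and 1 that was higher (2.13%), beside 12.9% and 11.4% of all tested genes (24.3% in either direction). The scaling of the arrays bears on all of these values: after quantile normalization 32 of 47 were below 0 beside 50.2% of all tested genes, and the median was -0.04 beside -0.00. Under that scaling 7 lower and 1 higher members did not overlap, where 11.8% and 11% of all tested genes did not. The measured background also depends on brightness, since among the 9943 genes above the median of gene rows 55.1% lay below 0 with a median of -0.03.

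**Figure D1:**
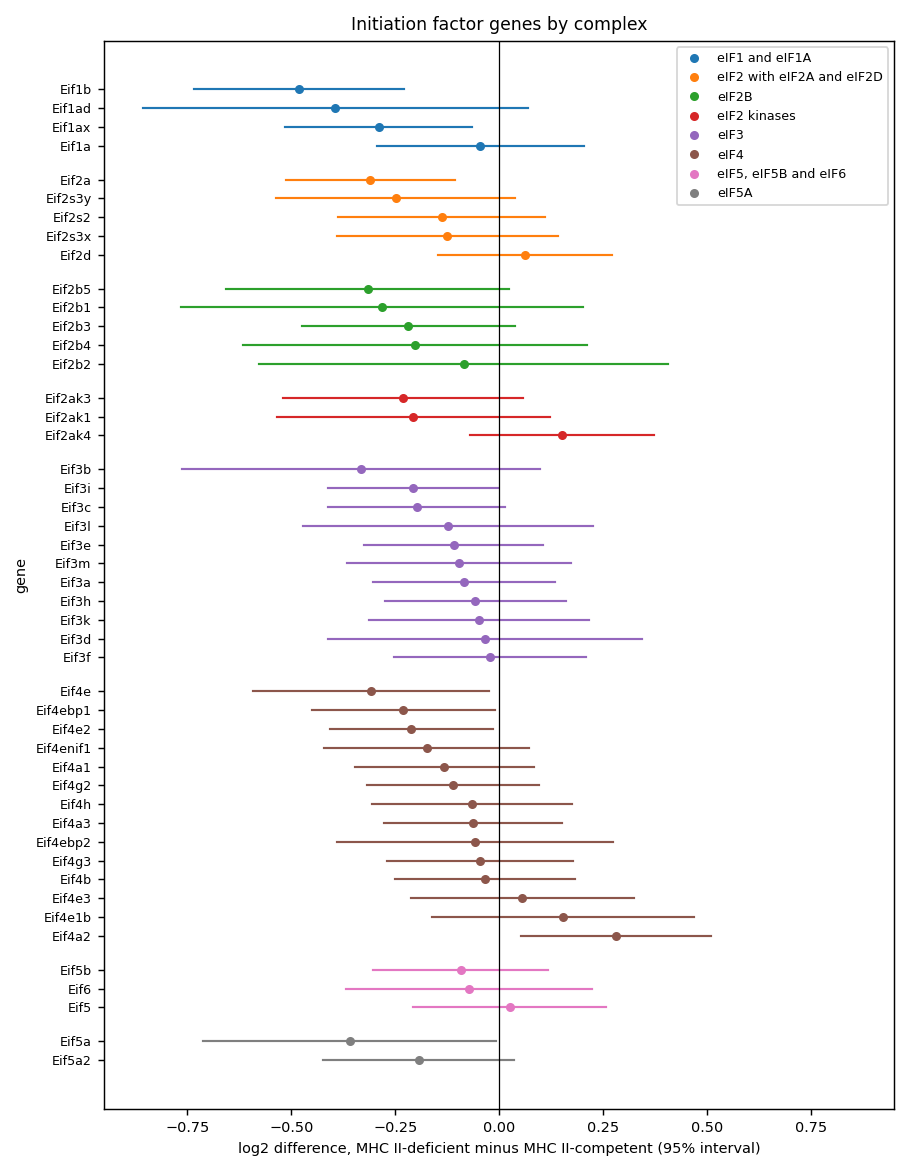
Log2 difference (MHC II-deficient minus MHC II-competent, horizontal axis) of the 47 tested genes, grouped and coloured by complex, with limma's 95% interval over 3 arrays per group. Most points lie left of 0, from -0.48 (Eif1b) to 0.28 (Eif4a2), and most intervals include 0.

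Markers of other cells and of dividing cells were measured on the same arrays. The Treg and T cell markers were present in both groups, with Foxp3 between 9.68 and 9.88 and Cd3e between 11.08 and 11.27 on all 6 arrays. All 5 Treg markers (median -0.27) and all 3 tested T cell markers (median -0.08) were below 0, with 0 called in either list; the lowest were Ctla4 (-0.33), an inhibitory receptor gene, Ikzf2 (-0.29) and Il2ra (-0.27), which encodes the CD25 used for the sort. The mean of 17 myeloid markers ran from 6.03 to 6.84 in the competent and from 6.76 to 7.45 in the deficient arrays (15 higher, 2 lower, median difference 0.72), and 1 of them, Adgre1, which encodes the macrophage antigen F4/80, passed (1.39, SE 0.29, adjusted p = 0.035 in limma's test). That call ended with a trended robust prior, after centring on the medians and after quantile normalization. It also ended without any 1 array except deficient 3, without which 4 of the 17 passed as higher. The call was lost with the myeloid covariate too. That covariate is the mean of the 17 markers, Adgre1 among them, so this fit cannot test the call. With the replicate block 9 of the 17 passed as higher, and with array weights 4 as higher and 1 as lower. Of all tested genes 2.13% passed in either direction without deficient 3, 3.75% with the replicate block and 4.89% with array weights. All 12 tested proliferation genes were lower (median -0.39), and 3 of them fell, where 2.03% of all tested genes passed as lower. The 3 were Mcm3, a replication helicase gene (-0.56), Mki67, which encodes Ki-67 (-0.58), and the topoisomerase gene Top2a (-0.64). None of the 12 passed with the myeloid covariate or without competent 2, deficient 1 or deficient 2, and 1 passed without competent 1. Few of all tested genes passed in these 5 fits: 0.525%, 1.15%, 1.06%, 1.42% and 1.66%, in that order. The median of the 12 in them was -0.40, -0.40, -0.32, -0.41 and -0.25. Top2a did not pass under quantile normalization or with the mean of a gene's rows, and with array weights 4 of the 12 passed as lower. The 3 tested B cell markers had a median of 0.02, and the 2 tested CD8 and NK markers and 2 tested erythroid and platelet markers medians of 0.29 and 0.33, with 0 called in each list. The part of other cells or of dividing cells in the initiation factor values was not tested beyond the values given here. In a bulk sort, fewer cells of a type and less RNA per cell cannot be told apart.

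The 4 promoters below were chosen after the values were seen: Eif1b and Eif2a with the smallest p-values, Eif4e as the cap-binding gene known as a target of Myc, and Eif4a2 as the 1 member that did not overlap on the higher side. Each run holds 250 bases before and 50 after the start annotated by RefSeq (GRCm38.p6), 5′ to 3′ on the strand of the gene. Capitals mark the E-box CACGTG, which Myc and related factors bind, and the ETS core CGGAAG, read on either strand (CTTCCG on the other).
Eif1b, chr9:120492356-120492655, plus strand: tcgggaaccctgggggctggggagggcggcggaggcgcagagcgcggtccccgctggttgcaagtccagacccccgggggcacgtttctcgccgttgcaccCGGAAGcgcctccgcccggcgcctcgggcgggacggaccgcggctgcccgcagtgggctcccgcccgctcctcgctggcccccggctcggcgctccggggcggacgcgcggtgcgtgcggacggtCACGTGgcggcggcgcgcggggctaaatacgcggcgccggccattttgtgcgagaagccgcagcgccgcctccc
Eif2a, chr3:58525571-58525870, plus strand: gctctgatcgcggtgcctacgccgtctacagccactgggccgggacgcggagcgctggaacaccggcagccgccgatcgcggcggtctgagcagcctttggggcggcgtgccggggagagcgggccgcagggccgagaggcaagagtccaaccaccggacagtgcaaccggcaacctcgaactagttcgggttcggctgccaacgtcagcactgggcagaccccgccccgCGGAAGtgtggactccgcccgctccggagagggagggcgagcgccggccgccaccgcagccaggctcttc
Eif4e, chr3:138527018-138527317, plus strand, 1 of 2 promoters listed: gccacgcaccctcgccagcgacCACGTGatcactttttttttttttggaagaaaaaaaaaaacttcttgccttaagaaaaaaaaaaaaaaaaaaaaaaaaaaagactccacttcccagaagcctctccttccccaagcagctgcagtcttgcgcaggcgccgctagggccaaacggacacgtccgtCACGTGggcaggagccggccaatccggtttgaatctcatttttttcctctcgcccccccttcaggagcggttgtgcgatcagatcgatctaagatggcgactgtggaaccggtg
Eif4a2, chr16:23107218-23107517, plus strand: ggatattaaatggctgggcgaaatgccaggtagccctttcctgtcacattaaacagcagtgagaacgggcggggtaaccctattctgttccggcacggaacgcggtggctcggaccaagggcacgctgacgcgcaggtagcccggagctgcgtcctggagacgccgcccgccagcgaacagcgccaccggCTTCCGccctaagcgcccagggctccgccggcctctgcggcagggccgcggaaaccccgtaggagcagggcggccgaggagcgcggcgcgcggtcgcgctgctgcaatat
Eif1b holds 1 E-box and 1 ETS core, Eif4e 2 E-boxes, and Eif2a and Eif4a2 1 ETS core each. The Eif4e window was taken from its 2 listed promoters by a rule that put those with more of the 2 motif kinds first. Of the 51 promoters listed for 38 members, 21.6% hold the E-box and 51% the ETS core, and of all 32851 promoters listed there, 7.15% and 16.9% do. The median difference was -0.13 for the 9 tested genes with an E-box and -0.13 for the 28 without it, and -0.18 for the 22 genes with an ETS core against -0.09 for the 15 without. Motif matches are descriptions of the letters in these windows. Myc itself stood at a difference of -0.25 (SE 0.10, adjusted p = 0.23 in limma's test), and 0 of 8 genes of Myc and its partners passed (4 lower, 4 higher, median -0.03).

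The eIF1 and eIF1A genes, whose proteins hold the ribosome in the open, scanning state and guard the choice of the start codon, had a median of -0.34 (4 genes, 4 below 0). Eif1b (row 10590298), which encodes an eIF1 isoform, read 9.76, 9.98 and 10.09 on the competent arrays and 9.36, 9.52 and 9.51 on the deficient arrays. Every deficient array was lower than every competent array. The mean was 9.46 ± 0.09 (SD, n = 3) against 9.94 ± 0.17 (SD, n = 3), a difference of -0.48 (SE 0.11, a 1.40-fold size, 95% interval -0.73 to -0.23). Its adjusted p of 0.051 in limma's test was the smallest of the 47. It passed under 6 of 16 other settings, among them median centring (-0.54, adjusted p = 0.044), the replicate block (0.048) and the trended robust prior (0.033), and over all of them the adjusted p ran from 0.033 to 0.35.

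Eif1ax, the X-linked eIF1A gene, read 10.89, 11.09 and 11.06 on the competent arrays and 10.70, 10.66 and 10.81 on the deficient arrays. The groups did not overlap, and the difference was -0.29 (SE 0.10, adjusted p = 0.16 in limma's test). Its autosomal counterpart Eif1a differed by -0.05 (SE 0.11), with overlapping groups. Eif1ad, which encodes a protein with an eIF1A-like domain, stood at -0.39 (SE 0.21). Competent 1 (8.90) lay far above competent 2 (8.22) and competent 3 (8.02), and only competent 3 lay within the range of the deficient arrays (7.82 to 8.19).

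No gene of the γ and β subunits of eIF2 passed. Eif2s2, which encodes the β subunit, differed by -0.14 (SE 0.11), and its second row by -0.04. The γ subunit is encoded on both sex chromosomes. Eif2s3x read 10.68, 10.78 and 10.38 on the competent and 10.56, 10.46 and 10.45 on the deficient arrays (-0.12, SE 0.12, adjusted p = 0.63 in limma's test). Eif2s3y, on the Y chromosome, read 8.48, 8.81 and 8.93 against 8.54, 8.38 and 8.54 (-0.25, SE 0.13, adjusted p = 0.34 in limma's test). Both overlapped between the groups.

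Eif2a and Eif2d encode monomeric proteins that can bring initiator transfer RNA to the ribosome without eIF2. Eif2a read 9.77, 9.86 and 9.78 on the competent and 9.46, 9.47 and 9.55 on the deficient arrays. The arrays of a group lay close together and the groups stood apart, at 9.49 ± 0.05 (SD, n = 3) against 9.80 ± 0.05 (SD, n = 3). The difference was -0.31 (SE 0.09, 95% interval -0.51 to -0.11, adjusted p = 0.10 in limma's test), and between -0.24 and -0.36 over the other settings, with no pass in any of them. Eif2d stood on the other side at 0.06 (SE 0.09). The median of these 5 genes was -0.14, and -0.07 after quantile normalization.

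All 5 genes of eIF2B, the exchange factor that reloads eIF2 with GTP, were below 0, with a median of -0.22 and the widest errors of the complexes described here (median SE 0.18). Eif2b5, which encodes the catalytic ε subunit, read 8.13, 7.99 and 7.97 on the competent and 7.35, 7.83 and 7.96 on the deficient arrays. The groups did not overlap, but deficient 3 lay next to competent 3 and deficient 1 set most of the distance. The difference of -0.32 (SE 0.15, adjusted p = 0.30 in limma's test) was -0.14 without deficient 1. Eif2b3, for the γ subunit, stood at -0.22 (SE 0.11, adjusted p = 0.34 in limma's test). Eif2b1 (-0.28, SE 0.21), Eif2b4 (-0.20, SE 0.18) and Eif2b2 (-0.09, SE 0.22) had single arrays far from the rest of their group. Eif2b2 read 9.40 and 9.21 on competent 1 and 2 but 8.49 on competent 3, below all 3 deficient arrays.

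The kinases of eIF2α answer different stresses. Eif2ak3 encodes PERK, which senses unfolded protein in the endoplasmic reticulum, and read 7.68, 7.39 and 7.37 on the competent and 7.37, 7.34 and 7.04 on the deficient arrays. Competent 3 and deficient 1 were at the same level to 2 decimals, so the groups barely stayed apart (-0.23, SE 0.13, adjusted p = 0.37 in limma's test). The difference was -0.13 without competent 1 and without deficient 3. Eif2ak1, the haem-regulated kinase HRI, differed by -0.21 (SE 0.15, adjusted p = 0.49 in limma's test) and by -0.07 without competent 1. Eif2ak4, the amino acid sensor GCN2, stood higher at 0.15 (SE 0.10, adjusted p = 0.45 in limma's test). The interferon-induced kinase gene Eif2ak2 (PKR) did not pass either (0.25, SE 0.15, adjusted p = 0.39 in limma's test), with overlapping groups.

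**Figure D2:**
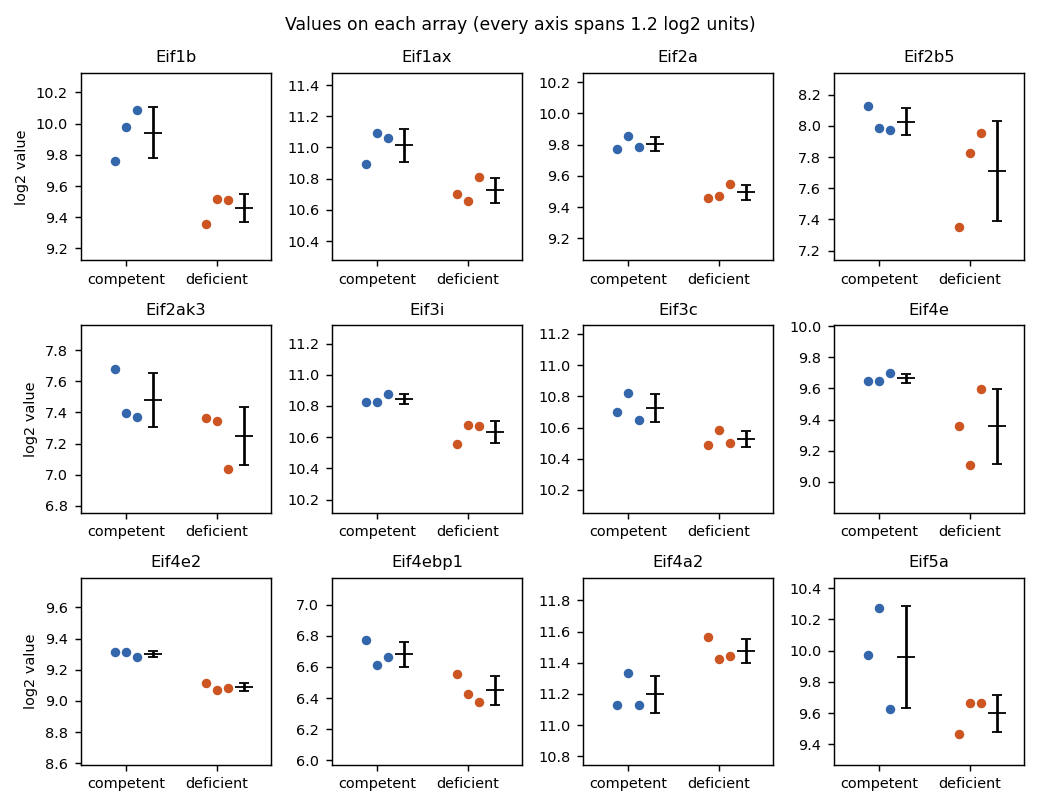
Log2 value on each array for 12 of the genes; points are single arrays, bars the mean and SD of 3 arrays, and each vertical axis spans the same range. Eif2a and Eif4e2 show tight, separate groups, while in Eif2b5, Eif4e and Eif5a 1 or 2 arrays make most of the distance, and Eif4a2 is the panel with the deficient arrays on top.

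The eIF3 genes encode the scaffold that binds the small subunit and recruits the messenger RNA. All 11 tested subunits were below 0, from -0.33 to -0.02, but 3 (Eif3d, Eif3f and Eif3k) were above 0 after quantile normalization, as were 4 without competent 1 (these and Eif3m), 2 without competent 2 (Eif3d and Eif3f) and 2 without deficient 1 (Eif3f and Eif3k). The median was -0.10 (-0.02 to -0.15 over other fits of all 6 arrays, -0.05 to -0.17 with 1 array left out). The intervals of 10 of the 11 lay within 0.5 log2 units of 0.

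The lowest subunits included Eif3b and Eif3i, which lie together in a module at the edge of the complex. Eif3i read 10.83, 10.82 and 10.88 on the competent and 10.55, 10.68 and 10.67 on the deficient arrays, without overlap (-0.21, SE 0.09, adjusted p = 0.26 in limma's test). Eif3b read 9.88, 9.99 and 9.22 against 9.18, 9.54 and 9.37 (-0.33, SE 0.19, adjusted p = 0.39 in limma's test). Competent 3 lay among the deficient arrays, and without it Eif3b passed at -0.57 (SE 0.13, adjusted p = 0.043 in limma's test). Without competent 2 it was -0.19 (adjusted p = 0.74 in limma's test), and -0.24 without competent 1 and without deficient 1.

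Eif3c, of the core, read 10.70, 10.82 and 10.65 against 10.49, 10.58 and 10.50, again without overlap (-0.20, SE 0.09, adjusted p = 0.30 in limma's test). The largest subunit, Eif3a, read 11.14, 11.31 and 11.29 against 11.18, 11.08 and 11.22 and differed by -0.09 (SE 0.10, adjusted p = 0.70 in limma's test). The core subunit genes Eif3e, Eif3f, Eif3h, Eif3k, Eif3l and Eif3m lay between -0.12 and -0.02, and Eif3d, which can bind the cap of some messenger RNAs, at -0.03 (SE 0.17). The second row of Eif3m stood at -0.19 where the first stood at -0.10.

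The 14 tested eIF4 genes had a median of -0.06, with 11 below and 3 above 0. That median turned to 0.01 after quantile normalization. Eif4e, which encodes the cap-binding protein, read 9.65, 9.65 and 9.70 on the competent and 9.36, 9.11 and 9.60 on the deficient arrays. The competent arrays were nearly equal and the deficient arrays spread over a wider range below them (-0.31, SE 0.13, adjusted p = 0.23 in limma's test). Its other rows gave -0.18 and 0.05, so the rows of this gene do not show 1 size. Whether all rows of a gene with several rows, such as Eif4e, Eif4a1 and Eif5a, measure the same locus was not tested. Eif4e2, a cap-binding homologue that represses translation, read 9.31, 9.31 and 9.28 against 9.12, 9.07 and 9.09, with a narrow spread in both groups (-0.21, SE 0.09, adjusted p = 0.23 in limma's test). Eif4e3 (0.06, SE 0.12) and the germline form Eif4e1b (0.15, SE 0.14) overlapped between the groups.

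Among regulators of eIF4E, Eif4ebp1, whose protein holds eIF4E back until mTOR phosphorylates it, read 6.77, 6.62 and 6.66 on the competent and 6.55, 6.42 and 6.38 on the deficient arrays. The groups did not overlap (-0.23, SE 0.10, adjusted p = 0.24 in limma's test). Eif4ebp2 differed by -0.06 (SE 0.15), and Eif4enif1, which encodes the eIF4E transporter, by -0.17 (SE 0.11).

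The paralogous helicase genes of eIF4A stood on opposite sides of 0. Eif4a2 read 11.13, 11.33 and 11.13 on the competent and 11.56, 11.42 and 11.45 on the deficient arrays. Every deficient array was higher, at 11.48 ± 0.08 (SD, n = 3) against 11.20 ± 0.12 (SD, n = 3), a difference of 0.28 (SE 0.10, 95% interval 0.05 to 0.51, adjusted p = 0.18 in limma's test). It kept this side under every setting run, between 0.15 and 0.35, with no pass, but after median centring its groups overlapped. Eif4a1, the form linked to growing cells, read 12.02, 12.01 and 11.90 against 11.93, 11.86 and 11.76 (-0.13, SE 0.10, adjusted p = 0.51 in limma's test). Its other 2 rows gave -0.17 and -0.35, the last with an adjusted p of 0.086 in the fit on rows, so the brightest row had the smallest difference. Rows of such close paralogs may pick up RNA of more than 1 copy, and the difference between the paralogs was not tested. Eif4a3, a relative that works in the exon junction complex, stood at -0.06 (SE 0.10).

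The scaffold gene Eif4g2 did not overlap between the groups, although by a narrow margin (11.00 for both competent 3 and deficient 1 to 2 decimals), with a difference of -0.11 (SE 0.09). Eif4g3 (-0.05), and the helicase cofactor genes Eif4b (-0.03) and Eif4h (-0.06), overlapped.

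The genes of the last steps of initiation differed little. Eif5, for the GTPase activator of eIF2, stood at 0.02 (SE 0.10), Eif5b, for the subunit-joining GTPase, at -0.09 (SE 0.09, adjusted p = 0.65 in limma's test) and Eif6, which keeps the large subunit from joining too early, at -0.07 (SE 0.13, adjusted p = 0.82 in limma's test). Eif6 read 8.67, 8.45 and 8.15 on the competent arrays and 8.34, 8.35 and 8.35 on the deficient arrays, so its competent arrays lay on both sides of a tight deficient group, and the sign turned without competent 1 (0.05). The intervals of these 3 genes all lay within 0.5 log2 units of 0.

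eIF5A, which carries the amino acid hypusine and helps ribosomes past difficult stretches, is an initiation factor by name. Eif5a read 9.97, 10.27 and 9.62 on the competent and 9.46, 9.66 and 9.67 on the deficient arrays. Competent 3 overlapped the deficient group (-0.36, SE 0.16, adjusted p = 0.25 in limma's test), and without it the difference was -0.53 (SE 0.13, adjusted p = 0.053 in limma's test). Without competent 2 it was -0.20 (adjusted p = 0.55 in limma's test). Its second row gave -0.15. Eif5a2 stood at -0.19 (SE 0.10, adjusted p = 0.34 in limma's test) without overlap, and the hypusine enzyme gene Dhps at -0.06.

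One competent array differed from the other two over much of the family. Competent 3 was the lowest of the 3 competent arrays for 30 of the 47 genes (63.8%), beside 33.3% of all tested genes. This held for 8 of 11 eIF3, 8 of 14 eIF4 and 4 of 5 eIF2B genes, but for 1 of 5 genes of eIF2 with eIF2A and eIF2D. The mean level of the 47 genes was 9.59, 9.59 and 9.43 on the competent and 9.38, 9.39 and 9.45 on the deficient arrays, so competent 3 lay within the deficient range. The distance from the mean of competent 1 and 2 to competent 3 was widest for Eif2b2 (0.82), Eif2b1 (0.73), Eif3b (0.71), Eif3d (0.64) and Eif3l (0.57). The other way round, Eif1b was highest on competent 3. On the same array the mean of the elongation and termination genes was 9.57 (9.78 and 9.76 on competent 1 and 2), that of ribosome biogenesis genes 9.01 (9.23 and 9.24), and that of the myeloid markers 6.03 (6.50 and 6.84), the lowest of the 6 arrays. Its part in the differences was not tested beyond leaving it out. Without competent 3 the median over the members was -0.19, with 42 of 47 below 0 and 1 past the threshold. In that fit 46% of all tested genes were below 0 and 4.71% passed. The lean was weaker without competent 1, competent 2 or deficient 1, with 33, 37 and 37 of 47 below 0. Beside these, 43.8%, 52.3% and 45.8% of all tested genes were below 0. Without deficient 2 and deficient 3 the counts were 40 and 42, beside 49% and 45.6%.

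**Figure D3:**
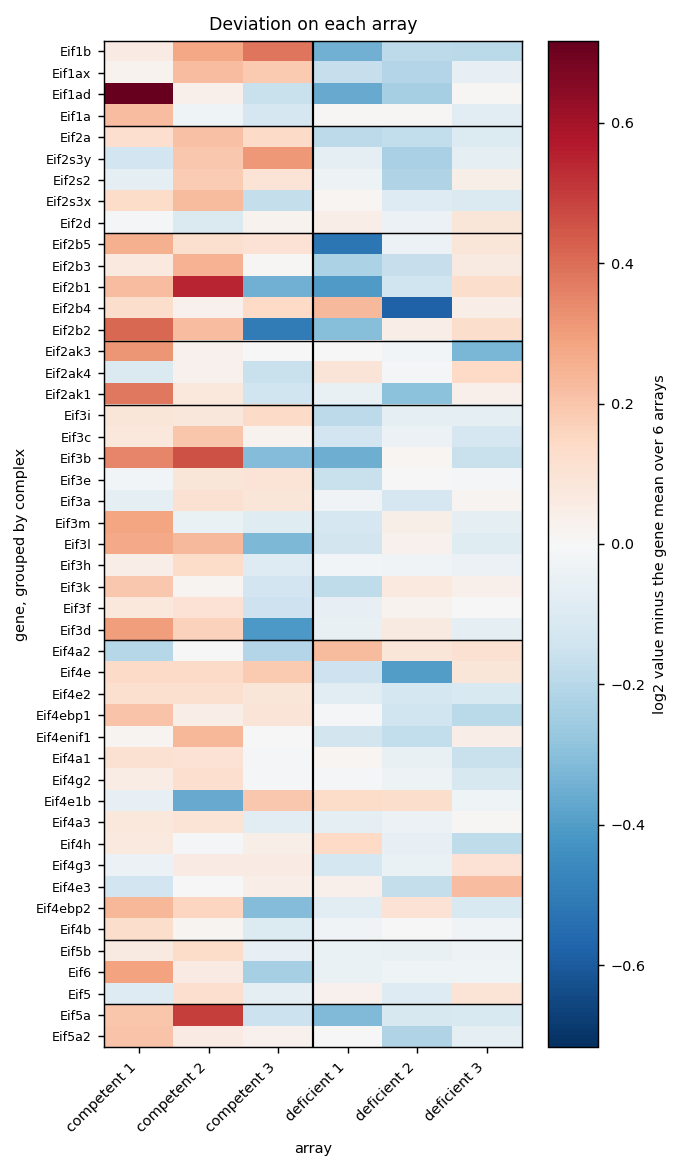
Log2 value of each gene (rows, grouped by complex) on each array (columns) minus its mean over the 6 arrays; red is above and blue below the mean. Competent 1 and 2 are mostly red, and competent 3 holds blue cells in eIF2B and eIF3 (Eif2b2, Eif2b1, Eif3b, Eif3d, Eif3l). Eif4a2 is blue on competent 1 and 3, close to its mean on competent 2 and red on deficient arrays.

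The partners of the initiation factors gave few calls. Of 9 tested mTORC1 and S6 kinase genes 1 fell, where 2.03% of all tested genes passed as lower. That gene was Rheb, which encodes the GTPase that activates mTORC1. It read 9.48, 9.68 and 9.59 on the competent and 9.09, 9.18 and 9.21 on the deficient arrays (-0.43, SE 0.10, adjusted p = 0.048 in limma's test). The call ended when any 1 array was left out, under quantile normalization, without the filter, with the myeloid covariate and with the replicate block. Of all tested genes 1.06% to 4.71% passed with 1 array left out. In the other 4 fits 3.06%, 2.37%, 0.525% and 3.75% passed, in that order. The list had 6 lower and 3 higher genes (median -0.03), with Tsc1 at 0.40 (SE 0.11, adjusted p = 0.079 in limma's test) and Rps6ka3 at -0.34 (SE 0.10, adjusted p = 0.10 in limma's test). Of 16 cap and poly(A) partners 0 passed (13 lower, 3 higher, median -0.08), and the nearest was Ncbp2, a nuclear cap-binding gene (-0.42, SE 0.11, adjusted p = 0.066 in limma's test).

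Genes downstream of eIF2α phosphorylation showed no common side. Of 12 integrated stress response genes 0 passed, with 5 lower, 7 higher and a median of 0.03. The central transcription factor gene Atf4 stood at 0.02 (SE 0.10), and the serine synthesis gene Psat1 at -0.41 (SE 0.10, adjusted p = 0.056 in limma's test). Asns (-0.47, SE 0.24) and Phgdh (-0.36, SE 0.16) were also lower. On the other side stood Ppp1r15a (0.21, SE 0.14), Atf3 (0.20, SE 0.09) and Ddit3 (0.16, SE 0.09). Psat1 passed as lower with the filter at the median and with array weights. Of 11 elongation and termination genes 0 passed (median -0.08), and of 13 ribosome biogenesis genes 0 passed (10 lower, 3 higher, median -0.10).

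**Figure D4:**
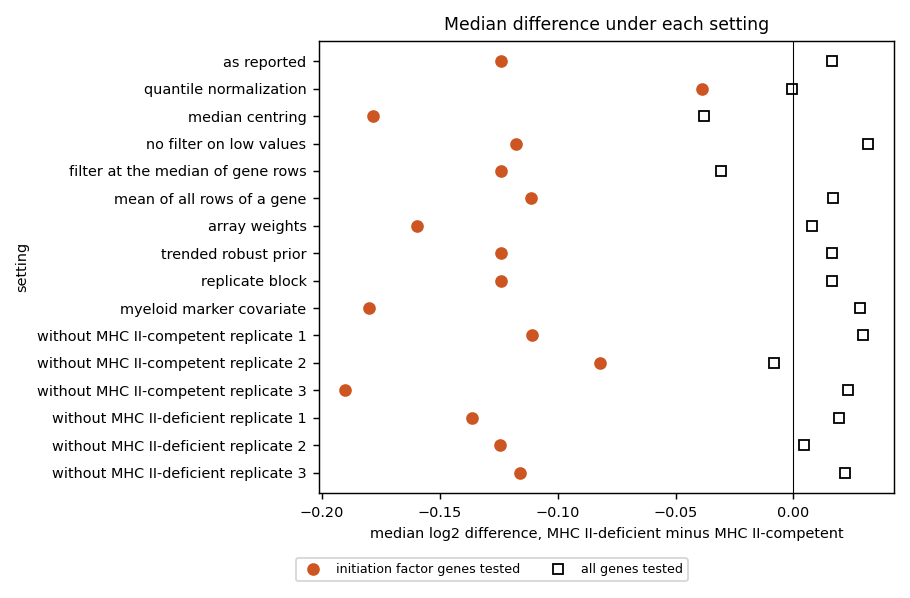
Median log2 difference of the tested initiation factor genes (filled) and of all tested genes (open) under each setting. The members' median lies below that of all tested genes in every row, with -0.04 and -0.00 after quantile normalization, where the distance is smallest.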

How the data were processed

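The deposited table holds 1 log2 value per array for 28101 rows. The authors made them with affy (R) and robust multi-array averaging (RMA), per the submitters' processing notes; RMA subtracts background, equalises the arrays' distributions and condenses probes to 1 value per row. Versions, annotation and build are not given in the sources used here, and base 2 was taken from RMA's usual output (values 2.40 to 13.3, array medians 6.11 to 6.25). Of the rows, 21640 carry 1 symbol, 1321 several and 5140 none. Symbols came from the platform annotation, updated by Entrez identifier (21553 rows) through RefSeq names. The values were tested as deposited with limma 3.58.1 in R 4.3.3 (lmFit, eBayes, two-sided, 4 residual degrees of freedom, 9.40 with the prior), adjusted over 15037 genes. The number of arrays, 3 per group, limits the precision. The members and lists were chosen with earlier results of these data known. The named genes were the 2 members of each complex with the smallest p and a fixed set, 21 in all; other members were named after their values were seen. The replicate numbers are not said to pair arrays: deviations of same-numbered arrays correlated at -0.02, -0.14 and 0.07. The fit was tested on simulated data: of 170 genes called, 7 had been left unchanged. Alternatives were quantile normalization, median centring, no filter or a filter at the median, the mean of a gene's rows, array weights, a trended robust prior, the replicate block, the myeloid marker mean as a covariate, and each array left out.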

Additional observations from a re-analysis of the deposited data

How the results depend on the processing

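No member passed as higher under any of 16 other settings. The count of members past the threshold as lower was 1 with median centring, the filter at the median, the mean of a gene's rows, the replicate block and the trended robust prior (Eif1b in each), and 0 or 1 with 1 array left out (Eif1b without competent 1, Eif3b without competent 3). Of all tested genes 2.79%, 5.19%, 3.52%, 3.75% and 3.96% passed in those 5 fits, in that order, and 1.66% and 4.71% in the last 2. With the replicate block, which the labels do not establish as a pairing, Eif1b had an adjusted p of 0.048 in limma's test and no other member changed its side of the threshold. The median over all members was -0.039 after quantile normalization and between -0.19 and -0.082 with 1 array left out. Quantile normalization gave a median of -0.067 for eIF2 with eIF2A and eIF2D and turned that of eIF4 to 0.012. The median of eIF4 was also -0.12 with median centring, -0.10 with array weights, -0.15 with the myeloid covariate and -0.13 to -0.055 with 1 array left out. With the myeloid covariate the medians were -0.18 for eIF5, eIF5B and eIF6 and -0.41 for eIF5A. With 1 array left out they ran from -0.42 to -0.24 for eIF1 and eIF1A, from -0.21 to -0.082 for eIF2 with eIF2A and eIF2D, and from -0.29 to -0.069 for the eIF2 kinases. Eif6 turned to 0.053 without competent 1. The second-brightest row of genes with several rows, an alternative chosen after seeing the data, gave a median of -0.11 and 0 calls. In each of these cases the cause was not tested. The signal over background of single rows was not used here, so values of dim genes such as Eif4ebp1 and Eif5a2 are less sure.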
